A study of Noccaea goesingensis with 12 samples.

Results

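Metal ion transporters were examined as 7 gene families of *A. thaliana*, the species whose genome was used for the alignment, in roots of the Ni hyperaccumulator *Noccaea goesingensis*. The 58 members were chosen by identifier, with earlier results of these data known. They comprised 15 ZIP/IRT, 8 HMA, 12 MTP, 6 NRAMP, 3 IREG, 6 COPT and 8 YSL genes. Of these, 14 had a value in the deposited tables, 11 in roots without Ni, 5 in roots with Ni and 2 in both states. The remaining 44 were in neither table. In all, 4460 genes were listed without Ni, 1944 with Ni and 1131 in both, and the number of genes tested is unknown.

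Plants of a non-metallicolous population from dolomite (NTM) and of a metallicolous population from serpentinite (TM) were grown from seeds collected in the wild. RNA was taken from whole roots, with 5 plants in each sample. The groups were NTM control (3 libraries), TM control (4 libraries), NTM Ni (3 libraries) and TM Ni (2 libraries). The methods instead state an equal number of samples for all groups. In the labels, a library number recurs in both TM groups if the letter o in a TM Ni title is read as a digit. Another number recurs in NTM control and TM Ni. The Ni groups received NiSO4 for 3 weeks, and both control groups received the nutrient solution without Ni. Each ecotype was a single population, so ecotype and population cannot be told apart. The labels describe inoculated seedlings in mine dump substrate with sand, also for the control groups, whereas the methods describe sand and perlite without inoculation, and which of them holds was not settled. The NTM Ni group contained a library with far fewer aligned reads than any other, and its share in the NTM Ni values was not tested.

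Each table gave 1 value per gene and ecotype, in FPKM (fragments scaled by the length of the gene model and the size of the library). The group files head the same values as TPM, and which unit they are in was not settled. Both units are scaled by gene length. The level of a gene may also depend on how well its reads align to *A. thaliana*, which was not tested. An order of genes by level therefore describes the values only. No value per library was used, hence no replicate error and no test could be given for any difference below. A gene entered a table only if it passed the threshold for TM against NTM in the analysis that produced the table. A difference between the listed values was thus required, and it is given as a description. Whether this threshold allowed for the number of genes tested was not settled, so some listed genes may not truly differ. A gene that was not listed did not pass this threshold or was not tested, and its level is unknown here. The counts of reads behind a value are unknown as well. Libraries came from whole roots, so fewer cells of a type and less RNA per cell cannot be told apart.

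The families differ in the direction in which they move metals. ZIP/IRT and NRAMP proteins carry divalent metals such as iron, zinc and manganese into the cytoplasm, and COPT proteins carry copper in the same direction. HMA proteins are ATP-driven pumps that move zinc, cadmium or copper out of the cytoplasm, MTP proteins export zinc or manganese, mostly into the vacuole or other compartments, and IREG (ferroportin) proteins export iron and related metals. YSL proteins carry metals bound to nicotianamine. In hyperaccumulating plants, strong expression of uptake carriers and of pumps that load the xylem is regarded as a feature of the trait. Genes are given below by the identifier in the files, with a symbol where the study pairs it with that identifier, and the family is that of the member list.

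**Figure D1:**
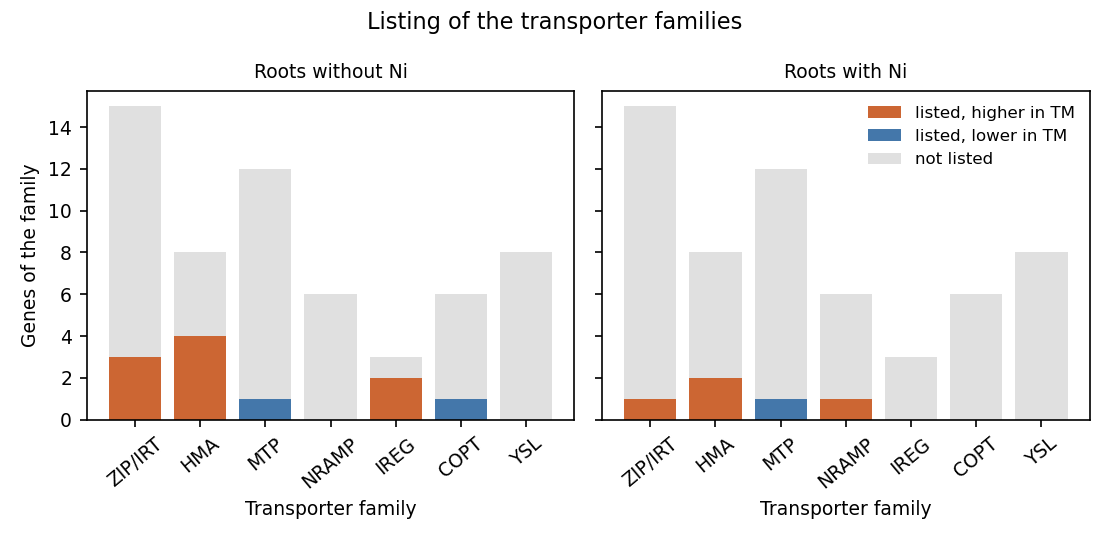
Number of genes (y axis) of each transporter family (x axis) that were listed with the higher value in TM, listed with the lower value in TM, or not listed, in roots without Ni (left) and with Ni (right). HMA had 4 of 8 genes listed without Ni, all higher in TM, and YSL had none in either state.

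Without Ni, 9 of the 11 listed transporter genes had the higher value in the TM ecotype and 2 in the NTM ecotype. The 9 genes belonged to the ZIP/IRT (3), HMA (4) and IREG (2) families, and the 2 genes to the MTP and COPT families. Over all 4460 genes listed without Ni, 44.5% were higher and 55.5% lower in TM, compared with 81.8% of the transporter genes that were higher. The log2 ratio of TM over NTM, formed with 0.1 FPKM added to each value, had a median of 0.99 over the 11 genes and of -0.71 over all listed genes. With Ni, 4 of the 5 listed transporter genes were higher in TM, from the ZIP/IRT (1), HMA (2) and NRAMP (1) families, and 1 MTP gene was lower. Of all 1944 genes listed with Ni, 46.2% were higher and 53.8% lower in TM. The median log2 ratio with Ni was 1.16 over the 5 genes and -0.91 over all listed genes. No listed NRAMP gene was found without Ni, no IREG or COPT gene with Ni, and no YSL gene in either state.

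A log2 ratio beyond 1 in either direction was reached by 6 of the 11 genes without Ni, 5 higher and 1 lower in TM, where 60.2% of all listed genes reached it. With Ni, 3 of the 5 genes reached it, all higher in TM, beside 86.1% of all listed genes. Below -1 were 46.8% of all genes listed with Ni and 0 of the 5. Listing alone selects large ratios, and the shares past 1 in either direction were near or below the background. In the direction of TM alone, 5 of 11 genes were above 1 without Ni, where 27.4% of all listed genes were, and 3 of 5 with Ni, where 39.4% were. After centring on the median ratio of the table, the split without Ni was 9 higher and 0 lower, and that of all listed genes moved from 27.4% above 1 and 32.8% below -1 to 44.5% and 11.4%. With Ni, the split of the transporter genes was 4 higher and 0 lower after centring, and that of all listed genes was 46.2% above 1 and 16.8% below -1. More than 50% of the genes listed in either state were lower in TM, so the median fell among those genes, and centring moved every gene that was higher in TM past 1.

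**Figure D2:**
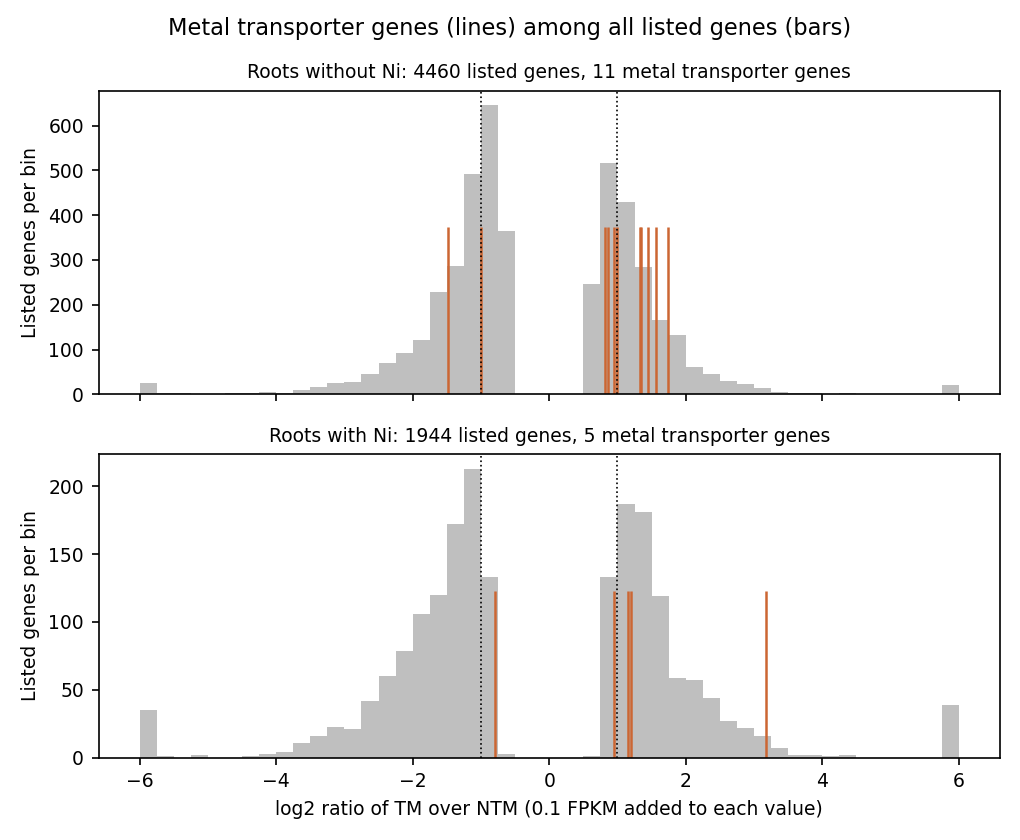
Number of listed genes per bin (y axis, grey bars) by the log2 ratio of TM over NTM (x axis, 0.1 FPKM added to each value), without Ni (top) and with Ni (bottom). Ratios beyond the axis are drawn in the end bins, dotted lines mark ratios of 1 and -1, and each orange line is a metal transporter gene, 9 of 11 of them to the right of 0 without Ni and 4 of 5 with Ni.

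Among the uptake carriers, *IRT1* (AT4G19690), the main iron uptake carrier of the root epidermis in *A. thaliana*, had the largest ratio of any member. With Ni, *IRT1* stood at 38.1 FPKM in NTM and 346.4 FPKM in TM, a 9.10-fold difference with a log2 ratio of 3.18. It had the highest TM level of the 5 transporter genes listed with Ni, and it ranked 65 among the 1944 listed genes by its value in TM Ni roots. Of the 899 genes higher in TM, 56 (6.23%) had a larger ratio than *IRT1*, of which 17 had at least 1 FPKM in both ecotypes. Its value in NTM was ordinary among the genes listed, with 60.6% of them lower. *IRT1* lies on chromosome 4 from 10707426 to 10709015 (TAIR10). The gene was not listed without Ni, so neither its level in control roots nor its Ni change is known here.

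The other listed ZIP/IRT genes numbered 3, all of them without Ni and none with Ni. AT1G60960 (chromosome 1, 22445310 to 22447214) had 26.1 FPKM in NTM and 50.3 FPKM in TM. For AT1G10970 (chromosome 1, 3665087 to 3667139) the values were 15.6 and 31.0 FPKM. AT2G30080 (chromosome 2, 12838730 to 12840112) had 33.5 FPKM in NTM, the highest NTM level of the 11 genes, and 59.1 FPKM in TM. The 3 genes were thus higher in TM by similar factors, 1.92-fold, 1.99-fold and 1.77-fold, with log2 ratios of 0.94, 0.99 and 0.82. None of these ratios passed 1, and between 62.6% and 80.7% of the 1986 genes higher in TM had a larger one.

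The only NRAMP gene listed was AT1G80830 (chromosome 1, 30372879 to 30375696), and it was listed with Ni. Its values were 13.1 FPKM in NTM and 29.3 FPKM in TM, a 2.24-fold difference with a log2 ratio of 1.16. Of the 899 genes higher in TM with Ni, 72.4% had a larger ratio. Among the copper carriers, AT5G59030 of the COPT family (chromosome 5, 23833728 to 23834511) was listed without Ni. It stood at 17.2 FPKM in NTM and 8.60 FPKM in TM, a 2.01-fold lower value in TM. Its log2 ratio of -0.995 (0.1 FPKM added) lay just inside the threshold, and without a pseudocount it lay just outside, which raised the number of genes past the threshold from 6 to 7.

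The HMA family had the largest share of listed genes among the families with more than 3 members, 4 of 8, and all 4 were higher in TM. The IREG family, with 3 members, had a larger share, 2 of 3. The share listed among all tested genes is unknown, so these shares cannot be set against a background. AT4G33520 (chromosome 4, 16118896 to 16126151) had 22.1 FPKM in NTM and 74.0 FPKM in TM without Ni. This 3.35-fold difference, a log2 ratio of 1.74, was the largest of the 11 genes in that state, and its TM level was also the highest of them. Of the 1986 genes higher in TM, 17.5% had a larger ratio. AT4G30110 (chromosome 4, 14720241 to 14724584) had 7.25 FPKM in NTM and 18.5 FPKM in TM, a log2 ratio of 1.34. Neither gene was listed with Ni.

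AT2G19110 and AT1G63440, both of the HMA family, were the only members with a value in all 4 groups. The genes in both tables thus made up 18.2% of the transporter genes listed without Ni and 40% of those listed with Ni, where over all genes the shares were 25.4% and 58.2%. AT2G19110 (chromosome 2, 8278881 to 8286445) stood at 17.7 FPKM in NTM control, 17.8 FPKM in NTM Ni, 44.6 FPKM in TM control and 41.1 FPKM in TM Ni. Both TM values were therefore above both NTM values, by 2.51-fold without Ni and 2.31-fold with Ni. AT1G63440 (chromosome 1, 23527655 to 23531109) showed the same order at a lower level, with 10.7 FPKM in NTM control, 9.09 FPKM in NTM Ni, 19.5 FPKM in TM control and 17.6 FPKM in TM Ni. Its TM values were 1.82-fold higher without Ni and 1.94-fold higher with Ni. A value in all 4 groups required a listed ecotype difference in both states, while a Ni difference was not required. By the labels, the comparisons without and with Ni shared no library, though the recurring library numbers leave the assignment unsettled. Of the 1131 genes listed in both, 98.9% had the same direction in both.

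The Ni change of these HMA genes was small in both ecotypes. On the log2 scale, Ni over control stood at 0.0018 in NTM and -0.12 in TM for AT2G19110, and -0.23 in NTM and -0.14 in TM for AT1G63440. Each table had its own normalization, and no test could be made between them. None of the 4 ratios passed 1, which 8.13% of the genes listed in both states did in NTM and 4.6% in TM. The log2 ratio of TM over NTM differed between the states by -0.12 for AT2G19110 and by 0.09 for AT1G63440, with Ni minus without Ni. For the 1131 genes the median size of that difference was 0.41, and 84.4% and 88.6% of them had a larger one than AT2G19110 and AT1G63440, respectively.

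**Figure D3:**
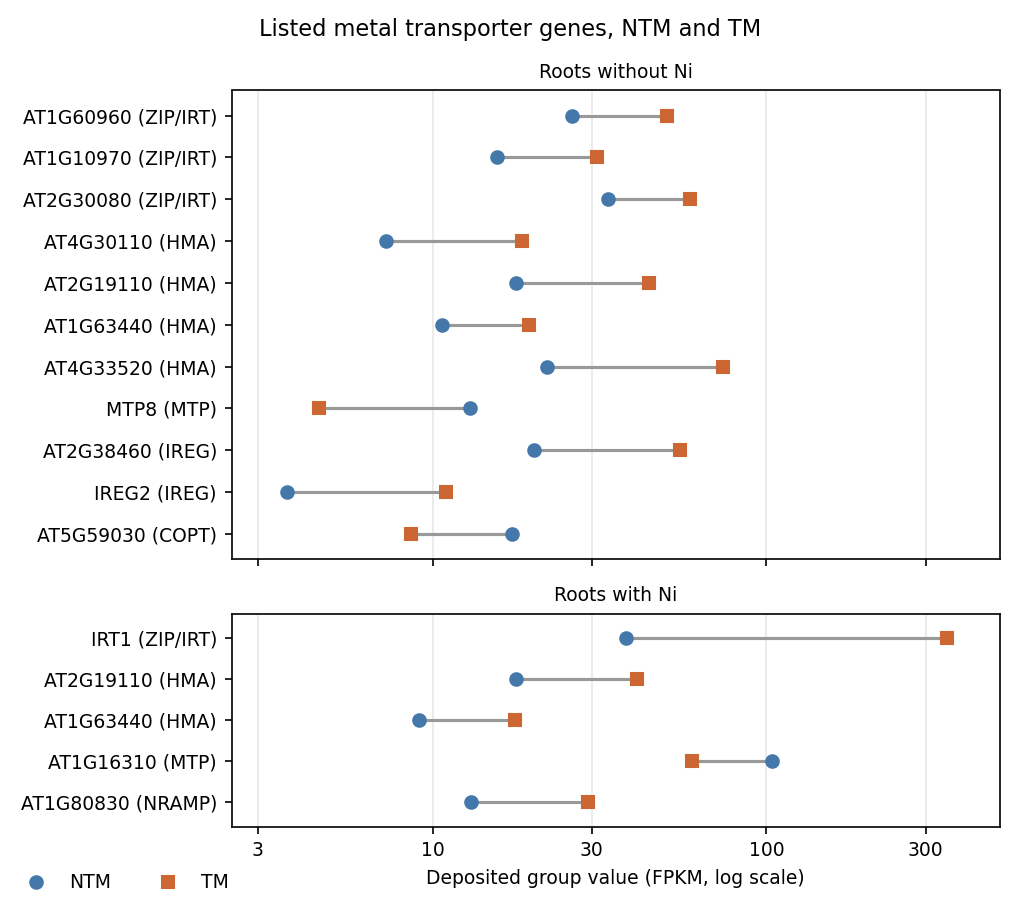
Deposited group values (x axis, FPKM, log scale) of each listed metal transporter gene (y axis, family in brackets) in NTM (circles) and TM (squares), without Ni (top) and with Ni (bottom); each point is 1 group value without replicate error. *IRT1* with Ni is the widest pair, at 38.1 and 346.4 FPKM, and MTP8, AT5G59030 and AT1G16310 are the pairs with the lower value in TM.

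Both listed IREG genes were higher in TM without Ni. AT2G38460 (chromosome 2, 16103311 to 16106177) had 20.1 FPKM in NTM and 55.2 FPKM in TM, a 2.75-fold difference with a log2 ratio of 1.45. *IREG2* (AT5G03570), whose product exports iron and Ni into the vacuole of root cells in *A. thaliana*, had the lowest NTM level of the 11 genes and a similar ratio, 1.56. Its TM level of 11.0 FPKM was still below the NTM level of AT2G38460. Larger ratios were found for 27.5% of the genes higher in TM in the case of AT2G38460 and for 23.4% in the case of *IREG2*. The third IREG gene, AT5G26820, was not listed.

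The 2 listed MTP genes were both lower in TM, in different states. *MTP8* (AT3G58060), a carrier of manganese and iron into the vacuole in *A. thaliana*, was 2.83-fold lower in TM without Ni and had the lowest TM level of the 11 genes, 4.57 FPKM. Its log2 ratio was -1.48, and 28.6% of the 2474 genes lower in TM had a larger difference. After centring on the median of the table, the ratio of *MTP8* was -0.77 and no longer past the threshold. AT1G16310 (chromosome 1, 5578431 to 5580693) was listed with Ni, at 103.8 FPKM in NTM and 59.9 FPKM in TM. This was the highest NTM level of the 5 transporter genes listed with Ni. The log2 ratio of -0.79 was among the smallest, with 99.1% of the 1045 genes lower in TM showing a larger one, and after centring on the median of the table its direction flipped to 0.12. The other 10 MTP genes were not listed.

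Without Ni, the NTM levels of the 11 genes ranged from 3.67 to 33.5 FPKM with a median of 17.2 FPKM, the same to 3 digits as the median over all genes listed. In TM the 11 genes ranged from 4.57 to 74.0 FPKM with a median of 31.0 FPKM, and the median of all genes listed was 15.4 FPKM. In TM the order from the highest level was AT4G33520, AT2G30080, AT2G38460, AT1G60960, AT2G19110, AT1G10970, AT1G63440, AT4G30110, *IREG2*, AT5G59030 and *MTP8*. In NTM AT2G30080 and AT1G60960 came first and *IREG2* last. Whether neighbours in these orders differed beyond their spread cannot be said without values per library. All 14 genes had at least 1 FPKM in both ecotypes wherever they were listed, and no other listed gene overlapped their loci in the same table.

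The members in neither table included *IRT2* (AT4G19680), *ZIP10* (AT1G31260) and *COPT4* (AT2G37925). The other ZIP/IRT genes not listed were AT3G12750, AT5G59520, AT2G32270, AT1G05300, AT2G04032, AT5G45105, AT4G33020, AT1G55910 and AT5G62160. From the HMA family AT4G37270, AT4G30120, AT5G44790 and AT5G21930 were not listed. The MTP genes not listed were AT2G46800, AT3G61940, AT3G58810, AT2G29410, AT3G12100, AT2G47830, AT1G51610, AT1G79520, AT2G39450 and AT2G04620. In the NRAMP family they were AT1G47240, AT2G23150, AT5G67330, AT4G18790 and AT1G15960. The COPT genes AT3G46900, AT5G59040, AT5G20650 and AT2G26975 and all 8 YSL genes, AT4G24120, AT5G24380, AT5G53550, AT5G41000, AT3G17650, AT3G27020, AT1G65730 and AT1G48370, completed the set.

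Uptake carriers and pumps act together with genes that regulate them and with genes that reduce, chelate or store metals. A list of 28 such genes was compiled by identifier from general knowledge of *A. thaliana*, without an annotation in the files. It held 10 regulators of iron, zinc or copper uptake, 5 genes of iron reduction and proton extrusion, 4 nicotianamine synthesis genes, 7 other transport genes and 2 copper chaperones. Of the 28 genes, 10 were listed, 6 without Ni (2 higher and 4 lower in TM), 7 with Ni (3 higher and 4 lower) and 3 in both states. The median log2 ratio was -0.90 without Ni and -0.96 with Ni, beside -0.71 and -0.91 over all listed genes. A ratio beyond 1 was reached by 4 of the 6 and 6 of the 7 genes, near the 60.2% and 86.1% of all listed genes. Of the transporter genes, 9 of 11 and 4 of 5 were higher in TM in these states, and the difference between the lists was not tested.

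The genes of the list with the largest ratios lay in both directions. With Ni, AT1G01580, from the reduction genes, had 3.14 FPKM in NTM and 24.0 FPKM in TM, a log2 ratio of 2.89. The nicotianamine synthesis genes AT1G56430 and AT5G56080 were also higher in TM, with 5.59 and 22.7 FPKM and with 18.0 and 49.0 FPKM in NTM and TM, respectively. None of these 3 genes was listed without Ni. Of the 4 listed regulators, 2 were higher and 2 lower in TM without Ni, and the 2 also listed with Ni were lower in TM. AT4G35040, from the regulators, was lower in TM in both states, with 27.8 FPKM in NTM control, 7.44 FPKM in TM control, 24.0 FPKM in NTM Ni and 4.06 FPKM in TM Ni. AT2G16770, also from the regulators, stood at 25.9, 14.1, 27.1 and 11.3 FPKM in the same order of groups. The transport gene AT5G13740 had 11.6, 4.96, 21.0 and 4.55 FPKM in that order. For these 3 genes both TM values were below both NTM values, the opposite order to that of AT2G19110 and AT1G63440.

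**Figure D4:**
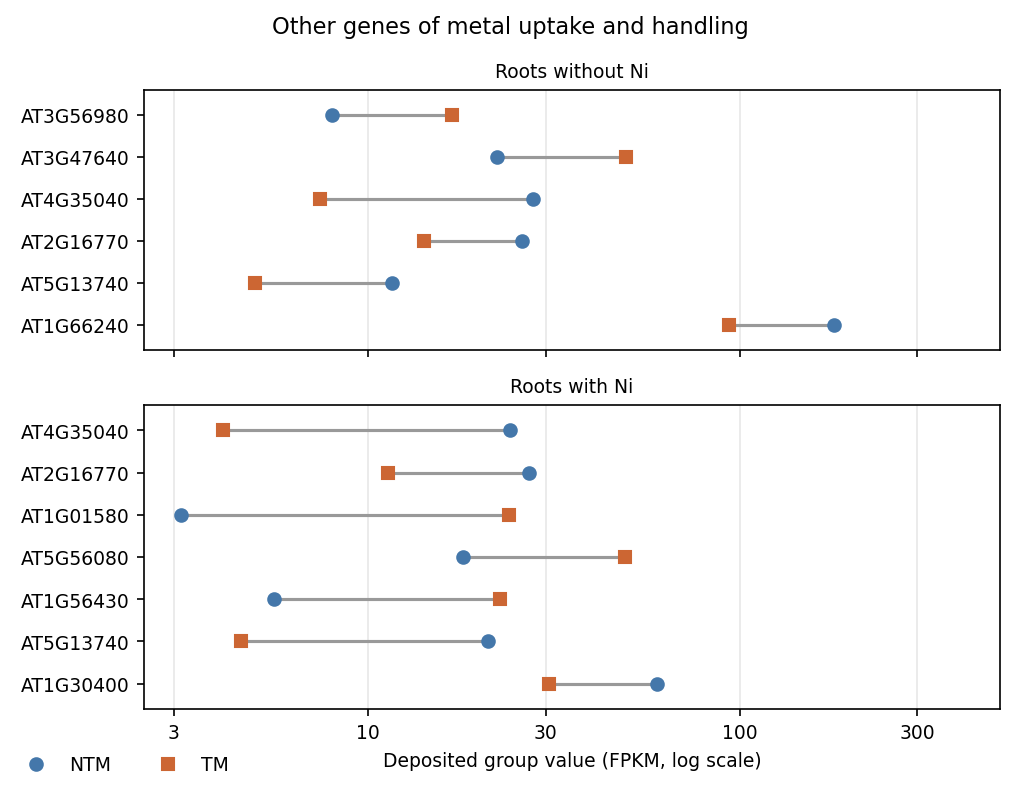
Deposited group values (x axis, FPKM, log scale) of the listed genes of metal regulation, reduction, chelation and storage (y axis) in NTM (circles) and TM (squares), without Ni (top, 6 genes) and with Ni (bottom, 7 genes). AT1G01580 with Ni is the widest pair with the higher value in TM, and AT4G35040 is lower in TM in both states.

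Of 12 marker genes of root cell types and leaf tissue, 3 were listed, and all 3 were lower in TM. Of all listed genes, 55.5% were lower in TM without Ni and 53.8% with Ni. None of the 6 markers of stele, phloem or root hairs was listed, so the makeup of the roots could not be checked on them. The endodermis marker AT3G54220 had 18.5 FPKM in NTM and 10.8 FPKM in TM without Ni. The leaf markers AT1G29930 and AT1G29920 had 45.0 and 36.9 FPKM in NTM and 23.1 and 8.66 FPKM in TM without Ni, and AT1G29920 had 35.9 and 12.5 FPKM with Ni. The part of these markers in the differences of the transporter genes was not tested. Reads of both ecotypes were aligned to *A. thaliana*, so copies of a gene in *N. goesingensis* that align to the same gene cannot be told apart, and whether the sequences of the ecotypes align equally well was not tested.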

How the data were processed

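RNA-seq of roots was available as 12 libraries. The authors trimmed reads with cutadapt 1.8.1, aligned them with HISAT2 2.1.0 to the *A. thaliana* genome (TAIR10 in the submitters' processing notes) and used Cuffdiff of Cufflinks 2.2.1. The authors deposited values called FPKM here after the methods, headed as TPM in the group files, as 1 value per gene and group, for genes with a *p*-value under 0.05 for TM against NTM. That *p*-value and a log2 fold change fill the remaining columns and were not used. Each of the 8 value columns was assigned to its group, 0 columns with values of single samples remained, and 0 values differed between group files and tables.

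Ratios were computed with Python 3.11.15, pandas 2.3.3 and numpy 2.4.6 as log2((value + 0.1)/(value + 0.1)), with a threshold of 1 and no filter, and checked on simulated data. Folds are ratios of the deposited values. The planned limma test needs values per library and was not run. All listed members are named, and of the list of 28 genes the 6 with the largest ratios. Members, lists and settings were chosen with earlier results of these data known. Locus starts, counted from 0 in the files, are printed from 1.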

Additional observations from a re-analysis of the deposited data

How the results depend on the processing

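A pseudocount of 1 FPKM left the number of transporter genes past the threshold at 6 without Ni and 3 with Ni. Requiring at least 1 FPKM in both groups could not change these counts, because every listed transporter gene was above that level. A threshold of 2 left 0 genes without Ni and 1 with Ni, *IRT1*. Centring on the median ratio gave 9 and 4, and no pseudocount, chosen after seeing the data, gave 7 and 3. Ni over control gave 0 of 2 genes in either ecotype under all these settings. No paired analysis was possible because the values carry no replicate number, and no library could be left out in turn. The depth behind each value is unknown.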
